A study of Mus musculus with 9 samples.

Results

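Zfp600 and the genes named Zfp900 to Zfp999 are mouse zinc finger genes, and their RNA was measured here in mouse brain. They were taken by symbol: every probe set of the array whose platform symbol is Zfp600 or Zfp followed by a 9 and 2 more digits. This gave 48 genes among the 19505 named on the array, with 49 of its 22206 probe sets, and Zfp932 alone had 2, of which the brighter stands for the gene. Another 15 RefSeq symbols of the same pattern were not analysed here. The set was chosen by the log2 signals of these same arrays, with the higher Zfp600 signal of ob/ob vehicle over wild type brain already known. That comparison is therefore given as a description, and nothing is read from the members' calls in it.

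Many genes of this naming series encode proteins that join a KRAB domain, a stretch that recruits a repressor, to an array of zinc fingers, each of which contacts a few bases of DNA. Through the KRAB domain such a protein brings in the co-repressor TRIM28 and with it the histone methyltransferase SETDB1, heterochromatin protein 1 and DNA methylation, which silence transposable elements and some genes near them. The genes multiply by local duplication, sit in clusters of close relatives and differ between inbred mouse strains.

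The study used Clariom S arrays, 1 per male mouse brain sample, with 3 arrays in each of 3 groups. The first group was ob/ob mice (C57BL/6JHamSlc-ob/ob, which lack functional leptin and become obese) given VE, an extract of the rice bean Vigna umbellata, by gavage at 100 mg/kg for 42 days. The second was ob/ob mice given vehicle, and the third was wild type mice (C57BL/6JHamSlc-+/+) given vehicle. All mice were 6 weeks old when bought, had 1 week to settle in and ate standard chow. The labels name 1 tissue, brain, with no region; the study's design text instead mentions white adipose tissue and a further dose, which has no array here. The signals held brain markers: 9 neuron genes averaged 14.16 on the VE arrays, 14.32 on the ob/ob vehicle arrays and 14.89 on the wild type arrays, in log2 units, while 7 white adipose genes averaged between 5.40 and 5.72.

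Before the results, 1 array stands apart. VE array 2 correlated with the other 8 arrays at r of 0.962 to 0.970 over all probe sets, where those 8 correlated with each other at 0.979 to 0.993, and its spread of signals was narrower (SD 2.38 against 2.56 to 2.84). It gave the lowest of the 9 values in 25 of the 48 members and in 37.9% of all probe sets. Where leaving it out moved a member's VE difference printed here by over 1.5 times or changed its sign, the difference without it is given as well. Marker genes of every brain cell type listed had lower means in ob/ob vehicle than in wild type brain: 9 of 9 neuron genes (0 past an adjusted p of 0.05 in limma, beside 1.27% of all probe sets, median -0.60), 6 of 6 astrocyte genes (2 past it), 5 of 5 oligodendrocyte genes, 5 of 5 microglia genes (none past it in either list) and 6 of 6 choroid plexus genes (2 past it), the last averaging 8.60 to 10.05 on the ob/ob vehicle arrays against 10.20 to 11.42 on the wild type arrays. Bright probe sets in general lay lower: over 20 bins of mean signal, the 4 brightest had median differences of -0.37 to -0.24. The part of these shifts in the zinc finger differences was not tested, and in a whole-tissue sample fewer cells of a type and less RNA per cell cannot be told apart.

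On chromosome 4 lie 9 of the 48 members, within 2178 kb, from the start of Zfp980 at 145670697 to the end of Zfp933 at 147849126 (RefSeq, GRCm38.p6), and the main pattern concerns them. Of the rest, 13 are on chromosome 17, 8 on chromosome 7, 6 on chromosome 2, 4 on chromosome 8, 3 on chromosome 13, 2 on chromosome 5 and 1 each on chromosomes 9, 10 and 14. The promoter windows of the chromosome 4 genes, from 250 bases before to 50 bases after the annotated start, show how close these relatives are. RefSeq's table held windows for 44 of the 48 members. The windows below are those of Zfp600, of the 4 genes whose windows resemble it most and of Zfp933, whose window does not. Capitals mark CCAAT or its reverse complement ATTGG, the core of the CCAAT box, and GGGCGG or its reverse complement CCGCCC, the core of the GC box; where ATTGG and GGGCGG overlap, they form 1 capital run.
Zfp600: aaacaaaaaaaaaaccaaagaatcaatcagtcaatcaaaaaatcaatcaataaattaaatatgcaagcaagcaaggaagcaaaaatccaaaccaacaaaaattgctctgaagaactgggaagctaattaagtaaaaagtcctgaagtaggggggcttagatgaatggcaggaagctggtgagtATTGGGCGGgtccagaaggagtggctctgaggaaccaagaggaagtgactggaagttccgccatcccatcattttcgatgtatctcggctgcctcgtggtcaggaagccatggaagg
Zfp979: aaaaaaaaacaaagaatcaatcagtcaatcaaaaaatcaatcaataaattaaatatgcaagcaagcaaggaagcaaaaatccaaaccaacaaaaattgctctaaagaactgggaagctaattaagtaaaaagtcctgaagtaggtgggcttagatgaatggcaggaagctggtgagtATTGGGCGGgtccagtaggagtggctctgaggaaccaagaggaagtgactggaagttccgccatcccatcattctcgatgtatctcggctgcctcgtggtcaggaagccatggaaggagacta
Zfp980: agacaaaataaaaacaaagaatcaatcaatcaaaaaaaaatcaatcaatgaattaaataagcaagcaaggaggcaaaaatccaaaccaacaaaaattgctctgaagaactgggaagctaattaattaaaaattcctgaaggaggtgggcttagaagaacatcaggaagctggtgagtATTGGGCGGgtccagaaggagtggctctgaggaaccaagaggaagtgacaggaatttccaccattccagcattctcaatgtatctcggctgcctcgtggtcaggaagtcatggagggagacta
Zfp985: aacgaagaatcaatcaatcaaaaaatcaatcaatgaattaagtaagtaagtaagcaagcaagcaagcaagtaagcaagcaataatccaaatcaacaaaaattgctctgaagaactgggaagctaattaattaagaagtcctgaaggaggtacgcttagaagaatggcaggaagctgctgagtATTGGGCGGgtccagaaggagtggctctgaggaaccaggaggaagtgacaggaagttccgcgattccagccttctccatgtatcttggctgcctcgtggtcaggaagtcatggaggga
Zfp987: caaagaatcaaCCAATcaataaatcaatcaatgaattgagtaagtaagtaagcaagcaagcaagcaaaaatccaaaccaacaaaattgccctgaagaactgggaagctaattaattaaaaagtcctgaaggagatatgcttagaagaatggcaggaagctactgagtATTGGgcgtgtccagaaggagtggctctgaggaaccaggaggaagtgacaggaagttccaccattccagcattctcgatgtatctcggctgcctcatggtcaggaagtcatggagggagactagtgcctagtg
Zfp933: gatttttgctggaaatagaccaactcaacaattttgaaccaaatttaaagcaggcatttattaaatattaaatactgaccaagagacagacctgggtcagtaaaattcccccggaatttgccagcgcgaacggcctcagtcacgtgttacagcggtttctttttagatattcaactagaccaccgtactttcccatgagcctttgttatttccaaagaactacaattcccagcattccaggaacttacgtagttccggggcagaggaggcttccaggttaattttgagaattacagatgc

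Zfp600's window lies at chr4:146156577-146156876 on the plus strand, Zfp979's at chr4:147642459-147642758 on the minus strand, Zfp980's at chr4:145670447-145670746 on the plus strand, Zfp985's at chr4:147553027-147553326 on the plus strand, Zfp987's at chr4:146097062-146097361 on the plus strand and Zfp933's at chr4:147848369-147848668 on the minus strand. RefSeq gives Zfp600 a further start, with its window at chr4:146157440-146157739, which was not used. In local alignments, 289 of the 300 bases of Zfp600's window were identical in Zfp979's, with no gap and 5 mismatches: C15A, G109A, G151T, A199T and T257C, counted from 1 at the 5′ end of Zfp600's window, Zfp600's base first. Identical bases numbered 270 for Zfp980, 253 for Zfp985, 251 for Zfp987, 232 for Zfp981, 205 for Zfp984 and 38 for Zfp933. No window of a member off chromosome 4 shared more than 136 bases with it, and the median was 19.5 over 36 genes. Zfp992 had no window.

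The joined run ATTGGGCGG, searched on both strands, was in 6 of the 8 chromosome 4 windows (Zfp600, Zfp979, Zfp980, Zfp981, Zfp984 and Zfp985), in 8 of the 44 member windows and in 84 of all 32851 windows of the table, or 0.256%. Zfp987 has the ATTGG but not the GGGCGG that follows it, and Zfp933 has neither. Alone, CCAAT or its reverse complement was in 32 of the 44 member windows against 37.4% of all windows, and GGGCGG or its reverse complement in 16 of 44 against 35.7%. These matches describe the letters and say nothing of which factor binds.

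Zfp600 (chr4:146156827-146198756, plus strand) was the member with the largest difference between ob/ob vehicle and wild type brain. Its log2 signal was 7.31, 7.91 and 7.75 on the VE arrays, 8.31, 8.41 and 8.12 on the ob/ob vehicle arrays and 6.79, 7.24 and 7.01 on the wild type arrays. No group overlapped another: the ob/ob vehicle arrays were highest, the VE arrays lay between and the wild type arrays were lowest. The means were 7.66 ± 0.31 in VE, 8.28 ± 0.15 in ob/ob vehicle and 7.01 ± 0.22 in wild type brain (SD, n = 3 each). Ob/ob vehicle exceeded wild type by 1.27 log2 units (SE 0.22). Of the 48 members 1, Zfp600, was past an adjusted p of 0.05 in limma's fit across all probe sets, beside 1.27% of all probe sets; since this contrast chose it, nothing is read from that count. Leaving out any single ob/ob vehicle or wild type array ended that call, with differences that ran from 1.16 to 1.38.

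VE against ob/ob vehicle was not used to choose the genes, but it shares the 3 ob/ob vehicle arrays that were. Choosing Zfp600 for a high ob/ob vehicle signal by itself favours a VE difference below 0, and the interval below does not allow for that. Zfp600 was lower in VE by a log2 difference of -0.62 (SE 0.22, 95% interval -1.098 to -0.15), with an adjusted p of 0.231 in limma over all probe sets. It was -0.75 without VE array 2. Against wild type the VE difference was 0.64 (SE 0.22), with an adjusted p of 0.267 in limma. Neither passed the threshold.

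**Figure D1:**
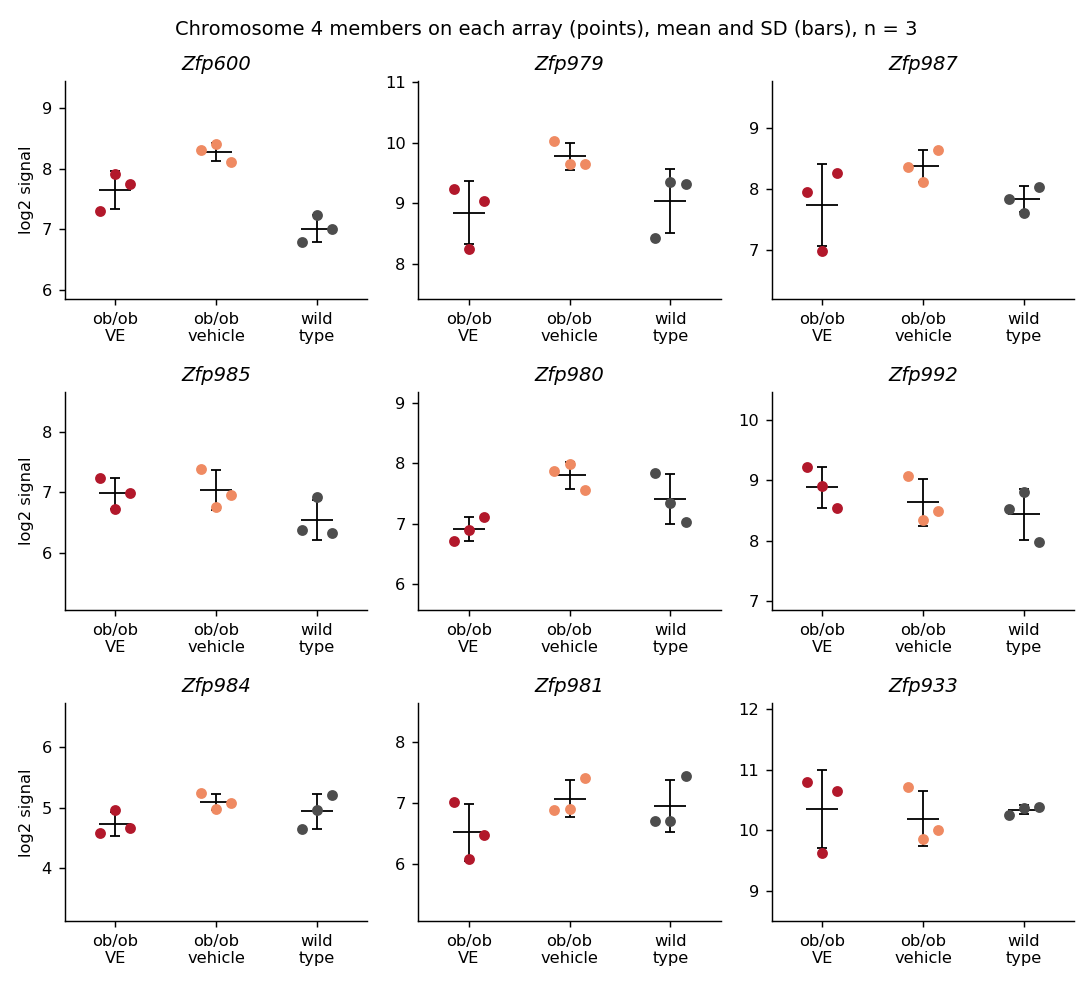
Log2 signal of the 9 chromosome 4 members on each array; points are arrays and bars are group means with the SD (n = 3), with VE at the left of each panel, then ob/ob vehicle, then wild type. Zfp600 has 3 separate groups, and Zfp979, Zfp980 and Zfp984 have all VE arrays below all ob/ob vehicle arrays.

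Zfp979, also known as Ssm1b, a strain-specific modifier of DNA methylation, had the next largest difference. Its signals were 9.23, 8.25 and 9.04 on the VE arrays, 10.03, 9.64 and 9.65 on the ob/ob vehicle arrays and 8.43, 9.35 and 9.32 on the wild type arrays. All ob/ob vehicle arrays lay above both other groups, which overlapped each other. Ob/ob vehicle exceeded wild type by 0.74 (SE 0.30), a value that was 0.44 without wild type array 1. The VE minus ob/ob vehicle difference was -0.93 (SE 0.30, 95% interval -1.59 to -0.28, limma adjusted p = 0.192), the lowest of the 48 members, and -0.64 without VE array 2.

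Zfp980, the first of the chromosome 4 genes along the sequence, gave 6.72, 6.90 and 7.11 in VE, 7.87, 7.98 and 7.55 in ob/ob vehicle and 7.84, 7.35 and 7.03 in wild type brain. All 3 VE arrays lay below all ob/ob vehicle arrays, while the wild type arrays overlapped both groups. Its difference between VE and ob/ob vehicle was -0.89 (SE 0.24, 95% interval -1.41 to -0.37, limma adjusted p = 0.111), and it ran from -1.02 to -0.77 over the alternatives tried. Between ob/ob vehicle and wild type it was 0.39 (SE 0.24), but 0.61 without wild type array 1 and 0.20 without wild type array 3.

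Zfp987, the nearest measured gene before Zfp600, gave 7.95, 6.98 and 8.27 in VE, 8.37, 8.12 and 8.65 in ob/ob vehicle and 7.84, 7.61 and 8.04 in wild type brain. The ob/ob vehicle arrays did not overlap the wild type arrays, and VE array 2 was lowest of all. The difference was 0.55 (SE 0.30) for ob/ob vehicle over wild type and -0.65 (SE 0.30, limma adjusted p = 0.374) for VE against ob/ob vehicle, or -0.27 without VE array 2. Zfp985 gave 7.24, 6.72 and 6.98 in VE, 7.39, 6.75 and 6.96 in ob/ob vehicle and 6.38, 6.92 and 6.33 in wild type brain. Here the VE arrays overlapped the ob/ob vehicle arrays. The difference was 0.49 (SE 0.25) for ob/ob vehicle over wild type, or 0.31 without ob/ob vehicle array 1. It was -0.05 (95% interval -0.58 to 0.47) for VE against ob/ob vehicle, and 0.08 without VE array 2, with the sign changed too under other scalings.

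The other 4 chromosome 4 members differed less between ob/ob vehicle and wild type brain. Zfp992 gave 0.20, Zfp984 0.16, Zfp981 0.12 and Zfp933, at the far end, -0.15, each within its overlap between groups. Against ob/ob vehicle, VE gave 0.25 in Zfp992, -0.37 in Zfp984, -0.55 in Zfp981 and 0.17 in Zfp933. Without VE array 2, these were 0.24 in Zfp992, -0.48 in Zfp984, -0.33 in Zfp981 and 0.54 in Zfp933. Zfp984 had 4.58, 4.96 and 4.66 in VE against 5.24, 4.98 and 5.08 in ob/ob vehicle, which do not overlap but lie at the dim end of the array.

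Set side by side, 8 of the 9 chromosome 4 members were above 0 in ob/ob vehicle minus wild type, with a median of 0.39, against a median of -0.02 over the 39 members elsewhere and 0.02 over all probe sets, of which 51.2% were above 0. The count was 8 of 9 also after quantile normalization, centring on the array median and cyclic loess, with medians of 0.32 to 0.36, and 7 to 9 when 1 ob/ob vehicle or wild type array was left out. The 39 other members kept no such sign, with medians from -0.10 to 0.07 under those scalings. Zfp600, high in the contrast that chose it, is 1 of the 9. Without it the chromosome 4 median was 0.295, and 0.22 to 0.34 under those scalings. Measured from the median of probe sets in the same bin of mean signal, the median difference was 0.34 in all 9 and 0.10 in the 39 others. In VE minus ob/ob vehicle, 2 of the 9 were above 0 (3 of 9 under each of the other scalings), with a median of -0.55, against 0.00 in the 39 others and -0.07 over all probe sets, of which 41.8% were above 0. Without VE array 2 these medians were -0.33 in the 9 and 0.20 in the 39 others. With all arrays kept and Zfp600 left out, the chromosome 4 median was -0.46. The 2 comparisons share the ob/ob vehicle arrays, so their signs are not independent. In VE minus wild type, which leaves the ob/ob vehicle arrays out, 4 of the 9 were above 0, beside 41.0% of all probe sets, and the median was -0.10, but 0.28 without VE array 2 and 0.04 after cyclic loess. The grouping by chromosome was noticed in these values and was not tested.

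The mean signal over the 9 genes was 7.78, 7.37 and 7.72 on the VE arrays, 8.21, 7.89 and 7.99 on the ob/ob vehicle arrays and 7.49, 7.70 and 7.64 on the wild type arrays. The ob/ob vehicle arrays were highest and did not overlap the others. With Zfp600 left out, the 8 remaining genes averaged 7.84, 7.30 and 7.72 in VE, 8.20, 7.82 and 7.98 in ob/ob vehicle and 7.58, 7.76 and 7.72 in wild type brain. The ob/ob vehicle arrays still lay above the wild type arrays, and VE array 1 then lay above the lowest of them.

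**Figure D2:**
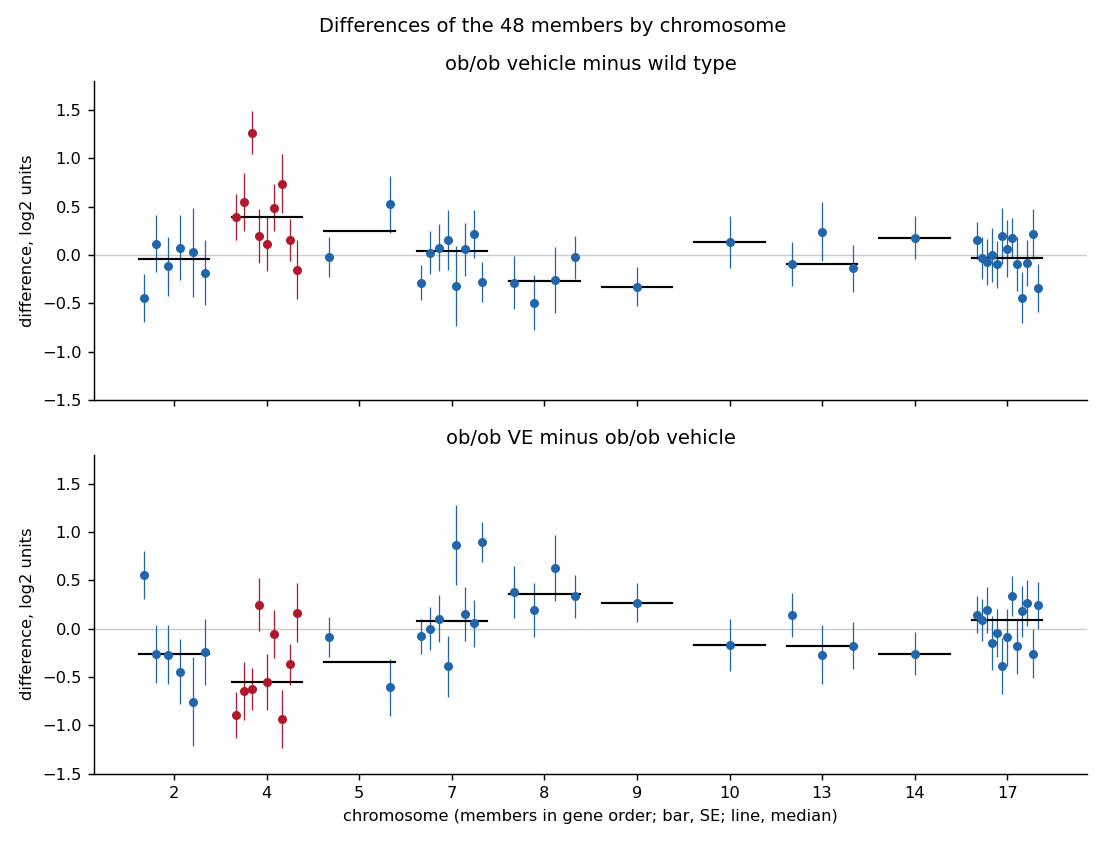
Difference of each of the 48 members in log2 units, by chromosome, for ob/ob vehicle minus wild type in the upper panel and VE minus ob/ob vehicle in the lower panel; each point is a gene, its bar the SE, and horizontal lines are medians. The chromosome 4 genes, with Zfp600 among them, have a median of 0.39 in the upper panel and -0.55 in the lower panel. Without Zfp600 these medians are 0.295 and -0.46.

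Neighbouring genes were read along the same stretch. Between Zfp980 and Zfp933 the array holds 4 probe sets of other genes with RefSeq positions. Zfp534, a zinc finger gene outside the naming series, gave 8.03, 6.21 and 7.80 in VE, 8.57, 7.99 and 8.30 in ob/ob vehicle and 7.36, 7.58 and 7.45 in wild type brain. Rex2 gave 7.34, 8.11 and 7.95 in VE, 8.26, 7.91 and 8.19 in ob/ob vehicle and 7.20, 7.71 and 7.25 in wild type brain. In both the ob/ob vehicle arrays lay above all wild type arrays, by 0.82 (SE 0.38) and 0.73 (SE 0.24), as in 15.8% of all probe sets. The predicted genes Gm13238 and Gm13034 gave 0.24 and -0.18. In the 1000 kb before the stretch, 5 of 7 probe sets were above 0 with a median of 0.21, and in the 1000 kb after it 7 of 22 with a median of -0.16. Before it, 2 of the 7 were higher in ob/ob vehicle without overlap and 2 lower. After it, 3 of the 22 were higher and 6 lower. The differences ran from -0.43 to 0.51 before the stretch and from -0.98 to 0.68 after it. Angptl7, the highest after it, had a VE minus ob/ob vehicle difference of -0.87, without overlap in either comparison. In VE minus ob/ob vehicle, 13 of the 22 were above 0. None of these 33 probe sets passed the adjusted threshold in any of the 3 comparisons, beside 1.27%, 0.486% and 0.0991% of all probe sets.

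**Figure D3:**
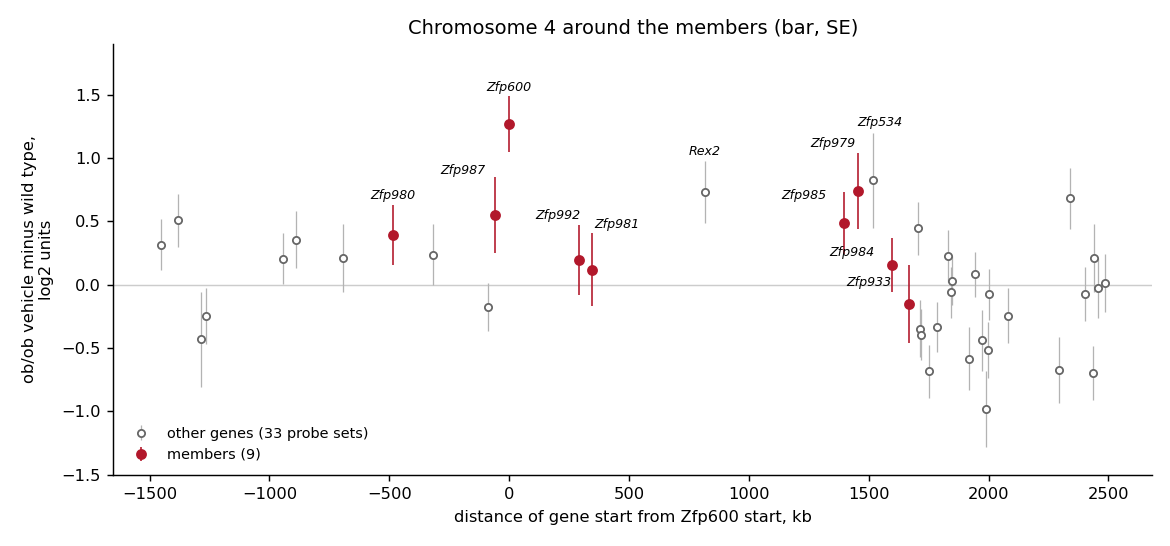
Ob/ob vehicle minus wild type in log2 units (points, with the SE as bars) for every probe set with a RefSeq position on chromosome 4 from 1000 kb before to 1000 kb after the members, against the distance of its gene's start from that of Zfp600. The members (filled) run from Zfp600 at 1.27 to Zfp933 at -0.15, and after Zfp933 7 of 22 other probe sets lie above 0.

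The chromosome 4 genes with promoter windows closer to that of Zfp600 tended to have larger differences between ob/ob vehicle and wild type brain. Over the 7 other chromosome 4 members with a window, Pearson's r of identical bases and difference was 0.85 and Spearman's rho 0.82, and r was 0.85 over the 6 without Zfp933. Zfp600 was chosen by this same contrast, and the 7 points share their arrays and a common descent. The SEs of the differences were 0.21 to 0.31. Zfp980, at 270 bases, had 0.39, below 0.49 in Zfp985 (253 bases) and 0.55 in Zfp987 (251 bases). The coefficients are therefore a description, and nothing is read from them. Whether a probe set also takes up RNA of a near-identical relative was not tested, since probe sequences were not used here.

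**Figure D4:**
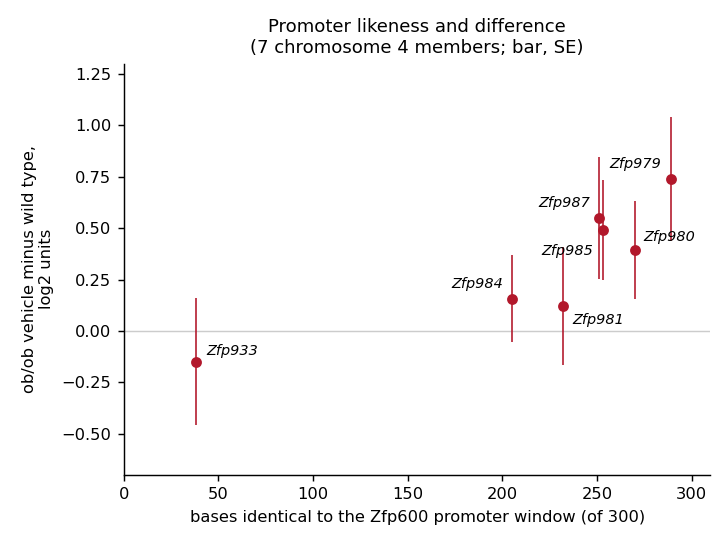
Ob/ob vehicle minus wild type in log2 units (points, with the SE as bars) of 7 chromosome 4 members against the number of bases of the Zfp600 promoter window found identical in theirs. Zfp979, at 289 bases, has 0.74, and Zfp933, at 38 bases, has -0.15.

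Off chromosome 4, the difference nearest to these was that of Zfp932 on chromosome 5 (chr5:109996502-110012266), whose protein represses endogenous retroviruses in mouse embryonic stem cells together with a close paralogue. It gave 12.94, 11.76 and 12.55 in VE, 13.45, 12.70 and 12.92 in ob/ob vehicle and 12.42, 12.70 and 12.37 in wild type brain, where an ob/ob vehicle and a wild type array met at 12.70. The difference between ob/ob vehicle and wild type was 0.53 (SE 0.29). It was 0.81 after quantile normalization, 0.85 after cyclic loess, 0.45 after centring on the array median and 0.31 without ob/ob vehicle array 1. The dimmer probe set of Zfp932, averaging 7.26, went the other way by -0.31, so the probe sets of this gene disagree. VE minus ob/ob vehicle was -0.61 on the bright probe set (SE 0.29, limma adjusted p = 0.399), but -0.28 without VE array 2 and -0.39 without ob/ob vehicle array 1. It was 0.36 on the dim one (limma adjusted p = 0.516). Zfp934 and Zfp936 followed with 0.24 and 0.22, within the overlap of their groups. Neither kept its sign: Zfp934 gave -0.04 without ob/ob vehicle array 1 and Zfp936 -0.01 without wild type array 3.

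At the other end, Zfp930 on chromosome 8 had 8.99, 7.87 and 8.97 in VE, 8.47, 8.45 and 8.33 in ob/ob vehicle and 9.19, 8.84 and 8.70 in wild type brain, a difference of -0.49 (SE 0.28) between ob/ob vehicle and wild type without overlap. Zfp946 on chromosome 17 had 9.79, 9.14 and 10.19 in VE, 9.34, 9.77 and 9.47 in ob/ob vehicle and 10.22, 9.84 and 9.84 in wild type brain, again without overlap of ob/ob vehicle and wild type, and a difference of -0.44 (SE 0.26), which was -0.24 after quantile normalization and -0.23 after cyclic loess. Zfp937 on chromosome 2 (-0.44, SE 0.25) and Zfp959 on chromosome 17 (-0.34, SE 0.25) completed the lowest 4, with overlapping groups. Leaving out 1 array moved them to between -0.67 and -0.27 for Zfp937 and between -0.54 and -0.13 for Zfp959, with wild type array 1 left out at the upper bounds, wild type array 3 at the lower bound of Zfp937 and wild type array 2 at that of Zfp959; Zfp937 was -0.28 without ob/ob vehicle array 3. The 4 members on chromosome 8 were all below 0, at a median of -0.27. In VE minus ob/ob vehicle all 4 were above 0, beside 41.8% of all probe sets, with a median of 0.36. These differences ran from 0.19 in Zfp930 to 0.63 in Zfp964, or 0.56 and 0.18 without VE array 2. Without VE array 1, Zfp930 gave 0.00. The 2 comparisons share the ob/ob vehicle arrays, and this grouping was not tested.

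Over all 48 members the ob/ob vehicle arrays lay above the wild type arrays without overlap in 3 genes (Zfp600, Zfp979 and Zfp987), beside 15.8% of all probe sets, and below them in 4 (Zfp930, Zfp941, Zfp946 and Zfp954), beside 17.5%. Both shares are under the background. The median difference was 0.03 over the members and 0.02 over all probe sets. Set against probe sets of like mean signal, in 20 bins of 1110 or 1111, 32 of the 48 members lay above the median of their bin, where 50.0% of all probe sets do by construction. Among 282 other genes named Zfp with a number the median was -0.07 and 1 passed the threshold, as lower in ob/ob vehicle, beside 1.27% of all probe sets.

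**Figure D5:**
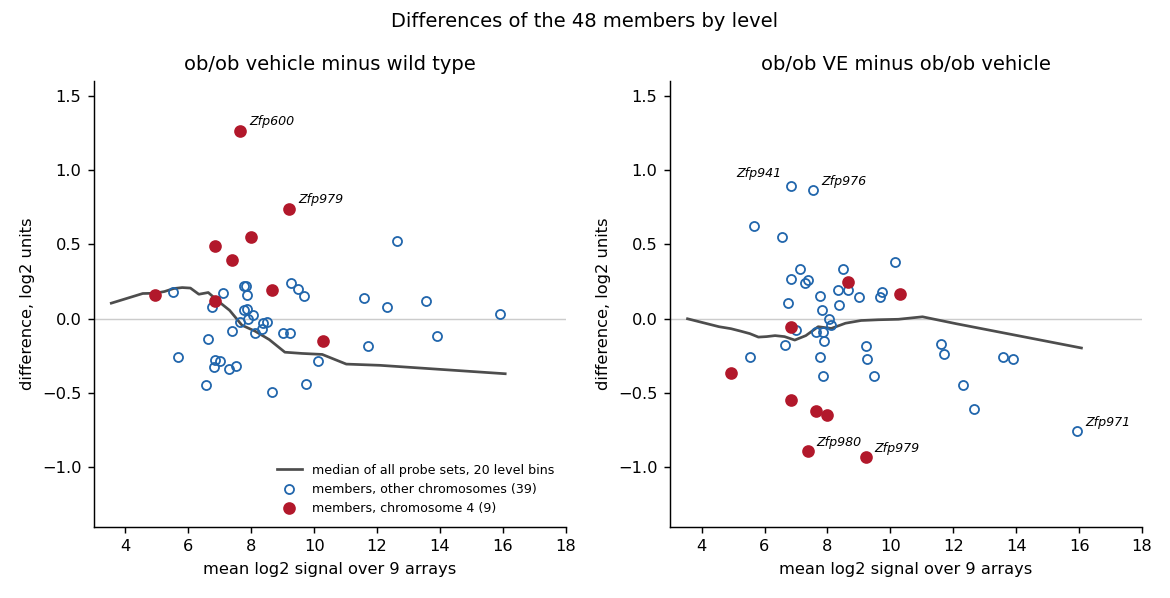
Differences of the 48 members in log2 units against their mean log2 signal over 9 arrays, for ob/ob vehicle minus wild type at the left and VE minus ob/ob vehicle at the right; the line joins the medians of all probe sets in 20 signal bins, and filled points are the 9 chromosome 4 members. Zfp600 stands at 1.27 at the left, and Zfp941 at 0.90 and Zfp979 at -0.93 mark the extremes at the right.

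VE against ob/ob vehicle called 0 of the 48 members at an adjusted p of 0.05 in limma, beside 0.486% of all probe sets. At an unadjusted p under 0.05 with a fold above 1.1, the rule in the study's design text, 6 members passed (Zfp600, Zfp937, Zfp941, Zfp979, Zfp980 and Zfp987), beside 13.3% of all probe sets. The arrays did not overlap in 4 members that were lower in VE (Zfp600, Zfp979, Zfp980 and Zfp984, all on chromosome 4), beside 11.9%, and in 4 that were higher (Zfp937, Zfp941, Zfp964 and Zfp994, none on chromosome 4), beside 4.62%.

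Zfp941 on chromosome 7 came closest to the threshold. Its signal was 7.42, 7.34 and 7.25 in VE, 6.49, 6.36 and 6.47 in ob/ob vehicle and 7.07, 6.51 and 6.58 in wild type brain. All VE arrays lay above all others, and the ob/ob vehicle arrays lay below the wild type arrays. VE exceeded ob/ob vehicle by 0.90 (SE 0.20, 95% interval 0.45 to 1.34, limma adjusted p = 0.0715). The call changed with the processing: the limma adjusted p was 0.0191 after quantile normalization, 0.0167 after cyclic loess and 0.0412 without VE array 2, with differences of 1.06, 1.02 and 0.90, and it reached 0.256 at most over the alternatives. VE exceeded wild type by 0.62 (SE 0.20, limma adjusted p = 0.255).

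The next 3 were less even across arrays. Zfp976 on chromosome 7 had 8.09, 8.61 and 7.30 in VE against 7.87, 6.14 and 7.39 in ob/ob vehicle, an overlap, with 0.87 between the means (SE 0.41, limma adjusted p = 0.387), or 0.37 without ob/ob vehicle array 2 and 0.56 without VE array 2. Zfp964 on chromosome 8 had 5.56, 6.90 and 5.56 in VE against 5.47, 5.38 and 5.29 in ob/ob vehicle, and its 0.63 was 0.18 without VE array 2. Zfp937 had 6.76, 6.92 and 6.67 in VE against 6.57, 6.22 and 5.90 in ob/ob vehicle, all higher, by 0.55 (SE 0.25, limma adjusted p = 0.353).

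Zfp971, Zfp966 and Zfp965 on chromosome 2 gave the brightest probe sets among the members, averaging 15.92, 13.91 and 13.57 over the 9 arrays; signals of different probe sets also depend on their probes and are not ranked as RNA amounts. Zfp971 had 16.34, 13.91 and 16.02 in VE, 16.17, 16.06 and 16.31 in ob/ob vehicle and 16.12, 16.25 and 16.08 in wild type brain. Its VE minus ob/ob vehicle difference of -0.76 rested on VE array 2 and was 0.00 without it. All 5 members with a mean above 12 were lowest on that array. Between ob/ob vehicle and wild type, Zfp971 differed by 0.03, Zfp966 by -0.12 and Zfp965 by 0.12, all of which depended on the scaling. Quantile normalization gave 0.48 for Zfp971, 0.25 for Zfp966 and 0.44 for Zfp965, and cyclic loess gave 0.42, 0.24 and 0.47. Centring on the array median gave -0.04 for Zfp971, -0.19 for Zfp966 and 0.05 for Zfp965. The promoter windows of 5 chromosome 2 members (Zfp931, Zfp965, Zfp966, Zfp970 and Zfp971) were also close to each other, with 242 to 293 identical bases in their 10 pairs.

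VE against wild type called 0 of 48 members at an adjusted p of 0.05 in limma, beside 0.0991% of all probe sets, and 3 (Zfp600, Zfp941 and Zfp994) at an unadjusted p under 0.05 with a fold above 1.1, beside 12.2%. VE arrays lay above all wild type arrays in Zfp600, Zfp941, Zfp961 and Zfp994, beside 5.34% of all probe sets, and below them in Zfp954, beside 11.5%. The smallest adjusted p among the members was 0.255, for Zfp941.

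The proteins that carry out repression by KRAB zinc finger proteins were read beside the members. Of 23 listed genes 21 were measured, and 0 passed the adjusted threshold in limma in any comparison. Of all probe sets, 1.27% passed it in ob/ob vehicle against wild type, 0.486% in VE against ob/ob vehicle and 0.0991% in VE against wild type. With so few called anywhere, 0 of 21 says little about the list. The smallest limma adjusted p was 0.0977 in ob/ob vehicle against wild type, 0.440 in VE against ob/ob vehicle and 0.0797 in VE against wild type. Under the rule with an unadjusted p and a fold above 1.1, 1 of the 21 passed in ob/ob vehicle against wild type, 0 in VE against ob/ob vehicle and 1 in VE against wild type, beside 20.1%, 13.3% and 12.2% of all probe sets. Trim28, the co-repressor itself, had 8.39, 9.73 and 8.29 in VE, 8.82, 8.53 and 8.24 in ob/ob vehicle and 8.52, 8.57 and 8.37 in wild type brain, with VE array 2 high. Setdb1 had 9.70, 8.89 and 9.47 in VE, 9.78, 9.64 and 9.95 in ob/ob vehicle and 9.50, 9.57 and 9.61 in wild type brain, with 0.23 for ob/ob vehicle over wild type and -0.44 for VE against ob/ob vehicle (limma adjusted p = 0.440), or -0.20 without VE array 2. Chd3, a remodeller of the NuRD complex, had the smallest p: 9.29, 9.30 and 9.02 in VE, 9.52, 9.49 and 9.54 in ob/ob vehicle and 10.04, 10.14 and 10.25 in wild type brain, 3 groups without overlap. Its differences were -0.63 for ob/ob vehicle and -0.94 for VE, both against wild type (SE 0.19 each), and -0.31 for VE against ob/ob vehicle. For ob/ob vehicle against wild type, Cbx1, a heterochromatin protein 1, gave -0.48, Pphln1, a subunit of the HUSH silencing complex, -0.48 and Uhrf1, which guides maintenance of DNA methylation, 0.35. For VE against ob/ob vehicle, Atf7ip, the partner of SETDB1, gave 0.39 and Cbx1 0.43. The list's median difference was -0.12 for ob/ob vehicle against wild type, -0.01 for VE against ob/ob vehicle and -0.15 for VE against wild type, beside 0.02, -0.07 and -0.07 over all probe sets. The list averaged 9.58 to 9.72 by group, and probe sets with means of 9.33 to 9.90 had medians of -0.23, -0.01 and -0.22. Its genes ranged from 4.27 to 15.39, so this match of level is rough. No lowering of the list is read from these medians.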

How the data were processed

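RNA of 9 mouse brain samples, 3 per group, was hybridised to Clariom S arrays. The authors deposited log2 signals, 1 value per probe set and array, normalized by RMA with signal space transformation in the Transcriptome Analysis Console, per the study's design text and the submitters' processing notes; scanner files were not used here. Detection and positive versus negative area filters named in the study's design text could not be applied to this table, and all 22206 probe sets were kept. Symbols came from the platform annotation (19572 probe sets have 1, 2634 none) and positions from RefSeq (GRCm38.p6).

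Differences of group means were fitted with limma 3.58.1 in R 4.3.3 (lmFit and eBayes, all 3 groups in 1 fit, 6 residual and 7.03 prior degrees of freedom), with Benjamini-Hochberg adjustment over all probe sets and a threshold of 0.05. The fit was tested on simulated data. Intervals are 95% intervals of that fit. The labels do not say whether the 3 arrays of a group are 3 animals. The spread between them may therefore be technical, and the number of arrays limits the precision. Promoter windows were compared by local alignment in Biopython 1.88 (match 1, mismatch -1, gap opening -3, extension -0.5), keeping the best alignment of each pair.

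Named members were Zfp600, those with the 8 largest and 4 smallest ob/ob vehicle minus wild type differences, the 4 largest and 4 smallest VE minus ob/ob vehicle differences, any past the threshold and the 3 brightest; members that do not overlap between groups and the other chromosome 4 genes were named after their values were seen. Further genes were the nearest 6 probe sets on each side of Zfp600, the 8 that correlate best with it, and Trim28, Setdb1 and the 4 smallest p-values of the co-repressor list in each of 2 comparisons. Angptl7 was named after its values were seen. The members and lists were chosen with earlier results of these data known. Alternatives were quantile, median and cyclic loess scaling, another moderation, a filter on dim probe sets, 2 groups alone, the replicate number as a block, the authors' rule and leaving out each array. Same-numbered arrays deviated together at r of -0.03 to 0.33 and were not treated as pairs.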

Additional observations from a re-analysis of the deposited data

How the results depend on the processing

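In ob/ob vehicle against wild type, the contrast that chose Zfp600, its difference ran from 1.16 to 1.38 over 16 alternatives, and nothing is read from its calls. Members called in that comparison numbered 1 in the fit as reported, beside 1.27% of all probe sets. They numbered 2 (Zfp600 and Zfp932) after quantile normalization and cyclic loess, beside 2.84% and 3.64%. By the authors' rule they numbered 2 (Zfp600 and Zfp979), beside 20.1%. Leaving out an array gave 0 to 2. It gave 0 without any single ob/ob vehicle or wild type array, beside at most 0.0946%. It gave 2 without VE array 2, beside 13.4%. In VE against ob/ob vehicle they numbered 0 as reported, beside 0.486% of all probe sets. Quantile normalization and cyclic loess gave 1 (Zfp941), beside 1.46% and 1.69%, and the authors' rule gave 6, beside 13.3%. Leaving out an array gave 0 to 1, with 1 without VE array 2, beside 1.81%. In VE against wild type they numbered 0 as reported, beside 0.0991%, and 3 by the authors' rule, beside 12.2%. Each leave-one-out fit there called 0, beside at most 0.712%. The median member difference ran from -0.17 to 0.18 in VE against ob/ob vehicle and from -0.19 to 0.18 in VE against wild type when an array was left out, both highest without VE array 2, and from -0.05 to 0.11 in ob/ob vehicle against wild type. Of the 21 co-repressor genes, 1 was called in ob/ob vehicle against wild type when those groups were fitted alone, beside 11.8% of all probe sets. By the authors' rule 1 was called there, beside 20.1%, and 1 in VE against wild type, beside 12.2%. Leaving out an array gave 0 to 1 in each of these comparisons, with 1 without VE array 2. The shares of all probe sets without that array were 13.4% in ob/ob vehicle against wild type and 0.329% in VE against wild type.

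With the replicate block, members called were 1, 0 and 0 in the 3 comparisons, as without it, beside 1.13%, 0.648% and 0.00901% of all probe sets. The replicate numbers do not pair the samples.

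Calls over all probe sets in ob/ob vehicle against wild type were 281 (119 higher, 162 lower) as reported, 631 (381 and 250) after quantile normalization, 614 (166 and 448) after centring, 808 (485 and 323) after cyclic loess, 2626 with the 2 groups alone, and 0 to 2975 when an array was left out. In VE against ob/ob vehicle they were 108 as reported, 324, 71 and 376 under those scalings, 0 with the 2 groups alone and 0 to 403 when an array was left out; in VE against wild type 22 as reported, 0, 7 and 0 under those scalings, 2 with the block and 0 to 158 when an array was left out. Centring moved the median of all probe sets in VE minus ob/ob vehicle to 0.06, against -0.07 as deposited. The causes were not tested.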

Other observations

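Among probe sets of other genes with 1 symbol, the 8 whose signal followed that of Zfp600 most closely over the 9 arrays were S100a4 (Pearson's r 0.965), Ssc4d (0.958), Lmx1b (0.955), Oosp3 (0.955), Olfr235 (0.952), Olfr1232 (0.952), Muc13 (0.942) and Speer4a (0.941). They were picked from all probe sets for this likeness, and the 9 points share 3 groups, so the coefficients only describe the arrays. Olfr235, an olfactory receptor gene, had 5.19, 5.81 and 5.77 in VE, 6.15, 6.49 and 6.23 in ob/ob vehicle and 5.02, 4.97 and 5.26 in wild type brain, near the dim end of the array. S100a4, which encodes a calcium-binding protein, had 6.97, 7.41 and 7.17 in VE, 7.43, 7.54 and 7.30 in ob/ob vehicle and 6.73, 6.97 and 6.98 in wild type brain. Of the members themselves, Zfp985 (r 0.54) and Zfp979 (r 0.50) came closest to Zfp600, and the 6 best included 5 on chromosome 4. The remaining chromosome 4 members did not follow it, with r of 0.17 in Zfp992, -0.08 in Zfp981 and -0.30 in Zfp933.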
